A study of Mus musculus with 2 samples.

Results

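The genes described here encode the ligands and receptors of the vascular endothelial growth factor (VEGF) and angiopoietin systems: the ligands Vegfa, Vegfb and Vegfc, the receptor tyrosine kinases Kdr, Flt1 and Flt4, the neuropilin co-receptors Nrp1 and Nrp2, and the angiopoietins Angpt1 and Angpt2. They were chosen by symbol in GENCODE release M21, and each of the 10 symbols matched 1 row, out of 55536 genes in the table. The measurements are polyA RNA sequencing of mouse heart at embryonic day 12.5. There were 2 libraries, called replicate 1 and replicate 2, and they form 1 group. Each was made from hearts pooled over male and female embryos of the strain B6NCrl, from 10 ng of RNA primed with oligo-dT, with ERCC spike-in RNA at a 1000x single-cell dose. Every library has a biosample of its own in the labels, though both carry the same donor entry, and the labels name no treatment, mutant allele or second tissue. The design therefore allows the order of levels among the genes, the shares of their transcripts and the agreement between the libraries, and no contrast between conditions.

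VEGF ligands are secreted dimers that bind receptor tyrosine kinases on endothelial cells. Vegfa signals mainly through Kdr, Flt1 binds Vegfa and Vegfb with high affinity but signals weakly and can act as a decoy, and Vegfc signals through Flt4 and, after processing, Kdr. Neuropilins have no kinase domain and present certain ligand isoforms to the receptors. Angpt1 activates the endothelial receptor Tek and stabilises vessels, whereas Angpt2 is a context-dependent antagonist of it. In the embryonic heart, endocardium and coronary endothelium carry the receptors while myocardium and other cells supply ligand.

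Several of these genes differ by splicing in ways that change what the protein binds, and the sequences that set the forms apart are shown here because the transcript results turn on them. They were cut from the GENCODE M21 transcript sequences on mm10 and are given 5′ to 3′ on the gene's strand. In Vegfa, a pair of exons on the minus strand encode basic, heparin-binding stretches. Exon 6 of Vegfa-207 lies at chr17:46022277-46022348 and has 72 bases, and exon 7 lies at chr17:46020991-46021122 and has 132 bases. Capitals mark the whole exon.
Vegfa variable exon 6: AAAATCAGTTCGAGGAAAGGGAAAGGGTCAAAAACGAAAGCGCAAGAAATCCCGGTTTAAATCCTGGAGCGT
Vegfa variable exon 7: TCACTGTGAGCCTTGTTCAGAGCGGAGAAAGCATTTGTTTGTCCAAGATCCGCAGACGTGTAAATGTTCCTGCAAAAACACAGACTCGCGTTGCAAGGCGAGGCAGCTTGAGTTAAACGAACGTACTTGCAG
The form with exon 7 but not exon 6 binds heparan sulfate and neuropilin, and the form with neither diffuses freely.

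In Flt1, also on the minus strand, the full receptor Flt1-202 splices exon 13 to exon 14 and continues to the kinase exons. Flt1-203 instead reads on into intron 13 and ends there, which gives the soluble receptor that holds ligand without signalling. The last 30 bases of exon 13, in lower case, are shared, and the 92 bases that follow, in capitals, are the read-through coding bases of Flt1-203 and the start of exon 14 in Flt1-202. The Flt1-203 stretch lies at chr5:147639133-147639254, and the capitals of Flt1-202 at chr5:147634432-147634523.
Flt1-203 after exon 13: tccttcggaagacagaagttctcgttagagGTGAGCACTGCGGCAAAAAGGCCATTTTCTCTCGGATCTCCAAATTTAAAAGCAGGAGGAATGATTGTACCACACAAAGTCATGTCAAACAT
Flt1-202 after exon 13: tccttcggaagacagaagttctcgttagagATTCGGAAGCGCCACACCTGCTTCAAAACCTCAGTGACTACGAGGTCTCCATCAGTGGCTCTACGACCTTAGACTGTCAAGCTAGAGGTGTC

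In Vegfb, on the minus strand, Vegfb-201 uses an acceptor 101 bases upstream of the one in Vegfb-202 (chr19:6985496-6985596). The choice shifts the reading frame, so that the proteins end in unlike tails, a soluble one in Vegfb-201 and a heparin-binding one in Vegfb-202. Capitals mark the bases found only in Vegfb-201, and lower case the shared bases of exons 5 and 6.
Vegfb-201 exon 5 to 6: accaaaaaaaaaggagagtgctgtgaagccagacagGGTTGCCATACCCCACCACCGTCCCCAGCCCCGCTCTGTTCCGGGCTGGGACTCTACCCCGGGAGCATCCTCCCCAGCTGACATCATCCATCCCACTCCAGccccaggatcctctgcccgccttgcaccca
Vegfb-202 exon 5 to 6: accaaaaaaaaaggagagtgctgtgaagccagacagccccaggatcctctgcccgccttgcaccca
In Nrp2, on the plus strand, Nrp2-202 carries an exon of 51 bases at chr1:62812534-62812584, shown in capitals because this transcript differed between the libraries.
Nrp2-202 exon 16: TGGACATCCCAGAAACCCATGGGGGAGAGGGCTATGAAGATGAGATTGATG

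The tables hold 35520161 expected counts in replicate 1 and 32577548 in replicate 2, where an expected count is an estimated number of reads assigned to a gene or transcript. The 10 genes took 0.0748% and 0.0756% of the counts on genes. Levels are compared between genes in TPM, a share of all transcripts that is corrected for transcript length. All 14 endothelial and endocardial markers, among them Pecam1 and Cdh5, were at 1 TPM or more in both libraries, with summed levels of 728 and 763 TPM. So were all 8 cardiomyocyte markers (35370 and 35758 TPM) and all 5 erythroid markers (37579 and 33505 TPM). Every epicardial, mesenchyme, megakaryocyte and macrophage marker also reached this level, as did 5 of 6 mural, 3 of 4 lymphatic and 8 of 14 hepatocyte markers. Hepatocyte markers stood apart: 13 of 14 were called lower in replicate 2, against 0.863% of the 17970 genes tested. They summed to 266 TPM in replicate 1 but 71.97 TPM in replicate 2. A call means an adjusted p under 0.05 and an absolute log2 ratio of at least 1 in the exact binomial test described below. In the other marker lists only the mural marker Myh11 was called, higher in replicate 2 (1 of 6, against 0.707% of all genes tested). The 5 megakaryocyte markers had a median log2 ratio of replicate 2 to replicate 1 of 0.35. The part of the hepatocyte difference in the values below was not tested. In a bulk sample fewer cells of a type and less RNA per cell cannot be told apart.

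All 10 genes were detected at 1 TPM or more in both libraries, over a range from about 1 TPM for Angpt2 to over 100 TPM for Nrp1 and Vegfb. By mean TPM the order was Nrp1, Vegfb, Kdr, Angpt1, Flt1, Vegfc, Flt4, Vegfa, Nrp2 and Angpt2. Nrp1 and Vegfb were the only neighbours in this order whose ranges over the libraries overlapped. Nrp1 stood above 89.5% and Angpt2 above 1.99% of the 12468 protein-coding genes detected in both libraries. By the mean of the deposited posterior mean TPM the order was identical, but there Vegfa (6.10 and 6.66) and Flt4 (6.35 and 6.52) overlapped. In counts, which also follow transcript length, 3 of the 10 genes kept their place. On the older M4 annotation Vegfb came before Nrp1, and the ranges of Vegfa and Nrp2 overlapped.

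**Figure D1:**
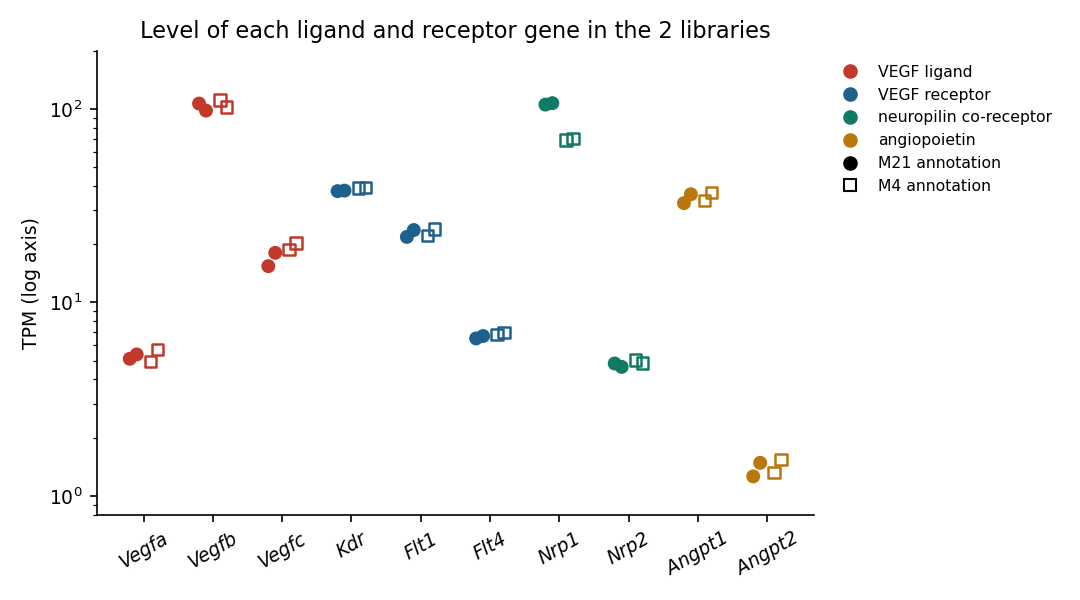
Level of each gene in TPM on a log axis, filled circles for the M21 annotation and open squares for M4, with replicate 1 to the left of replicate 2 in each pair and colours for the roles. Nrp1 and Vegfb lie near 100 TPM and Angpt2 near 1 TPM, and Nrp1 is the gene whose level shifts most with the annotation.

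Among the ligands, Vegfb was by far the most abundant, and Vegfa the least. Vegfb (chr19:6982473-6987651), which is prominent in heart and dispensable for most vessel formation, stood at 107 TPM in replicate 1 and at 98.1 TPM in replicate 2 (mean 102 ± 6.03, SD, n = 2). Vegfc (chr8:54077606-54187096), the ligand of lymphatic and coronary sprouting, had 15.4 and 18.04 TPM (16.7 ± 1.87, SD, n = 2). Of this, 1.45 and 4.88 TPM came from Vegfc-202, which has no annotated coding sequence. Vegfa (chr17:46016993-46032369), the main mitogen of endothelial cells, had 5.11 and 5.38 TPM (5.245 ± 0.191, SD, n = 2). The 3 ranges did not overlap. Vegfb exceeded Vegfa 19.5-fold, with a log2 ratio of Vegfa to Vegfb of -4.38 in replicate 1 and -4.19 in replicate 2, and exceeded Vegfc 6.14-fold. Vegfc in turn exceeded Vegfa 3.18-fold. Vegfb thus supplied 83.9% and 80.7% of the TPM summed over the 3 ligands, Vegfc 12.1% and 14.8%, and Vegfa 4.02% and 4.43%.

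The Vegfa level rests on 314 and 330 counts, and its value depends on the estimator. The deposited posterior mean was 6.10 and 6.66 TPM. The authors' credibility interval around it, whose level the header does not state, ran from 5.06 to 7.19 TPM and from 5.65 to 7.77 TPM. The plain TPM of replicate 2 lay below that interval. Plain TPM lay inside the gene's own interval for 8 of the 10 genes in replicate 1 and 7 of the 10 in replicate 2. For Kdr and Nrp1 it lay above the interval in both libraries. On either estimate Vegfa stayed below Vegfc, Flt1 and Kdr.

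Kdr was the leading VEGF receptor in both libraries. Kdr (chr5:75932827-75978458), the main signalling receptor for Vegfa, had 37.6 and 37.8 TPM (37.7 ± 0.170, SD, n = 2). Flt1 (chr5:147561604-147726011), summed over all its annotated transcripts, had 21.8 and 23.7 TPM (22.7 ± 1.32, SD, n = 2). Of this, 7.90 and 7.65 TPM came from Flt1-201, which has no annotated coding sequence. Flt4 (chr11:49609263-49652739), the Vegfc receptor that marks lymphatic and sprouting endothelium, had 6.51 and 6.70 TPM (6.605 ± 0.134, SD, n = 2). The ranges were apart, and Kdr exceeded Flt1 1.66-fold and Flt4 5.71-fold. Kdr made up 57.0% and 55.5% of the TPM summed over the 3 receptors, Flt1 33.1% and 34.7%, and Flt4 9.88% and 9.82%.

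Set against each other per length, the VEGF ligands outweighed the receptors, and the balance was carried by Vegfb. The ligands summed to 127 and 122 TPM and the receptors to 65.9 and 68.2 TPM, a log2 ratio of 0.95 in replicate 1 and 0.83 in replicate 2 (mean 0.89 ± 0.08, SD, n = 2). With Vegfb left out the log2 ratio was -1.68 and -1.54, so that the receptors exceeded Vegfa and Vegfc together 3.06-fold. Receptor transcripts are several times longer than that of Vegfb, and in counts not divided by length the log2 ratio of all ligands to receptors turned to -1.22. These are sums of mRNA over all annotated transcripts, among them the Flt1 forms that end before the kinase exons. They say nothing of protein amounts.

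Per length, individual ligand and receptor pairs went in opposite directions. Vegfa was lower than both of its receptors, 7.19-fold below Kdr and 4.33-fold below Flt1. The Flt1 level in these pairs sums all its transcripts. Its membrane form Flt1-202 alone had 7.76 and 8.76 TPM, against 5.11 and 5.38 TPM for Vegfa. Vegfb was 4.50-fold above Flt1, its receptor. Vegfc, with Vegfc-202 included, was 2.52-fold above Flt4, with log2 ratios of 1.24 in replicate 1 and 1.43 in replicate 2. These last 2 directions rest on the division by length: in counts Vegfc was below Flt4 in both libraries (762 against 986, and 734 against 919), and Vegfb was above Flt1 in replicate 1 (2869 against 2534) but below it in replicate 2 (2405 against 2521). In TPM each of the 15 pairs examined among ligands, receptors and co-receptors had the same sign in both libraries.

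**Figure D2:**
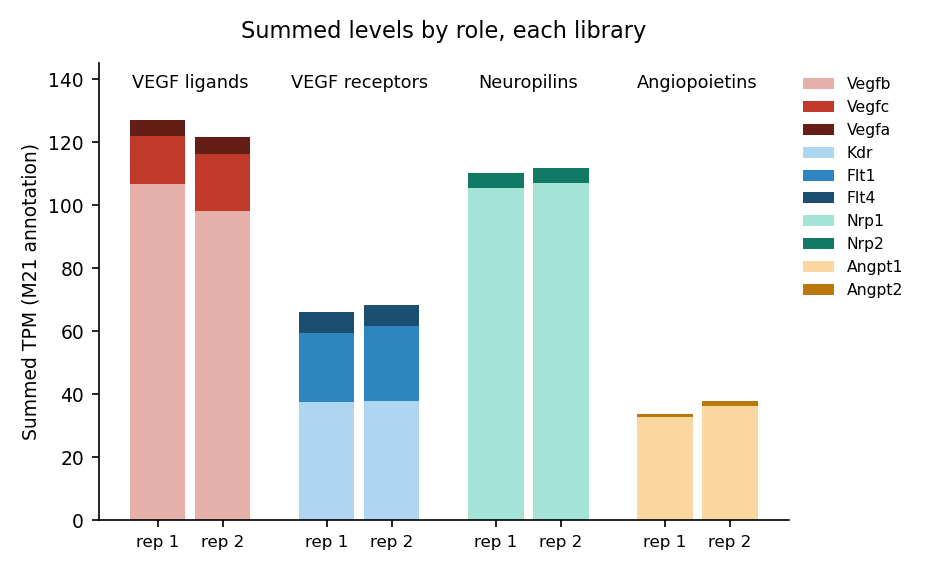
Summed TPM on the M21 annotation for VEGF ligands, VEGF receptors, neuropilins and angiopoietins, with 1 bar for each library and a colour for each gene. Vegfb fills most of the ligand bars (83.9% and 80.7%), Kdr is the largest part of the receptor bars, and Nrp1 and Angpt1 fill nearly all of theirs.

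The neuropilins were strongly unequal. Nrp1 (chr8:128358604-128503363), the co-receptor of Kdr and of class 3 semaphorins, had 105 and 107 TPM (106 ± 1.26, SD, n = 2). Nrp2 (chr1:62703285-62818695), which pairs with Flt4 in veins and lymphatics, had 4.83 and 4.64 TPM (4.735 ± 0.134, SD, n = 2). Nrp1 was 22.4-fold above Nrp2 and 2.82-fold above Kdr, and Nrp2 was 1.40-fold below Flt4. The level of Nrp1 is the one most dependent on the annotation: M4, which lists a single Nrp1 transcript of 5907 bases, gave 69.1 and 70.1 TPM, and the M21 mean was 1.53-fold higher.

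The angiopoietins were strongly unequal too. Angpt1 (chr15:42424723-42676977), which myocardium supplies to the endocardium during trabeculation, had 32.6 and 36.2 TPM (34.4 ± 2.57, SD, n = 2). Angpt2 (chr8:18690263-18741562), a product of activated endothelium, had 1.26 and 1.48 TPM (1.37 ± 0.156, SD, n = 2), on 108 and 114 counts. Angpt1 was 25.2-fold above Angpt2, with a log2 ratio of 4.69 in replicate 1 and 4.61 in replicate 2 (mean 4.65 ± 0.06, SD, n = 2). Tek, the receptor that both bind, had 52.1 and 55.0 TPM, and its partner Tie1 had 54.4 and 51.2 TPM. Angpt1 was therefore 1.56-fold and Angpt2 39.2-fold below Tek.

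For 4 of the 10 genes another annotated gene overlaps the locus. Angpt2 lies within Mcph1 on the opposite strand, which had 11.1 and 12.7 TPM, and was thus more abundant than Angpt2 in both. Angpt1 overlaps the antisense gene Gm17473, which had 1.92 and 2.09 TPM. The genes overlapping Nrp1 and Nrp2 were at 0 or below 0.2 TPM. Whether the counting used strand is not given in the sources used here. The counts of Angpt1 (3307.37 and 3287.27) and Gm17473 (96.63 and 94.73) were fractional. Reads of their overlapping exons may thus not have been told apart. Counts of Angpt2 (108 and 114) and Mcph1 (1052 and 1027) were whole, and the deposited posterior SD of the Angpt2 count was 0 in both libraries. Reads of Angpt2 were therefore not divided with another gene.

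The levels were close between the libraries. Counts were compared by a two-sided exact conditional binomial test with TMM-scaled library sizes, and a gene was called at a Benjamini-Hochberg adjusted p under 0.05 and an absolute log2 ratio of at least 1. This compares 2 libraries and covers counting error only. None of the 10 genes was called (0 of 10), against 1.57% of the 17970 genes tested, 0.707% higher and 0.863% lower in replicate 2. At an unadjusted p under 0.05 stood 3 of the 10, against 22.5% of all genes tested. With edgeR's exact test at a preset biological coefficient of variation of 0.1, 0 of the 10 were called and 0 had an unadjusted p under 0.05, and 0.634% of all genes tested were called.

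The log2 ratios of replicate 2 to replicate 1 lay between -0.14 and 0.19, with 6 genes above and 4 below 0. Vegfb had the lowest ratio, -0.14 with a 95% interval from -0.22 to -0.06 and an adjusted p of 0.00815 by the exact binomial test. Angpt1 had a ratio of 0.10 with an interval from 0.03 to 0.17 and an adjusted p of 0.0368 by the same exact test. These were the 2 of 10 genes with an adjusted p under 0.05 at any ratio, against 10.0% of all genes tested. They were also the 2 of 10 whose deposited intervals were apart between the libraries. Those of Vegfb were 99.99 to 107.8 TPM and 91.5 to 99.3 TPM, and those of Angpt1 30.6 to 32.8 TPM and 34.0 to 36.5 TPM. The share of all genes tested with intervals apart was not computed. Angpt2, with the fewest counts, had the widest interval, from -0.20 to 0.58 around 0.19.

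**Figure D3:**
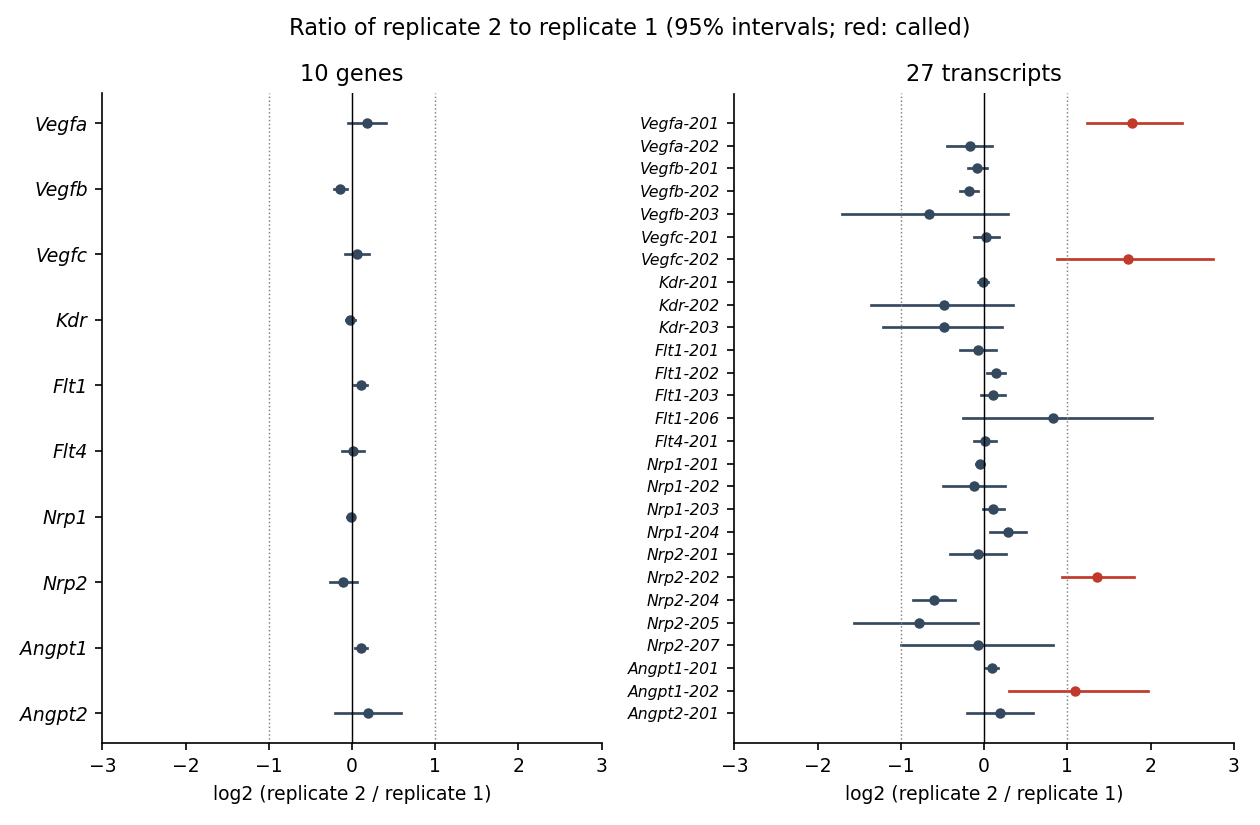
Log2 ratio of replicate 2 to replicate 1 with 95% binomial intervals, for the 10 genes on the left and their 27 tested transcripts on the right. Dotted lines mark a log2 ratio of 1 in either direction and red marks called features. The 10 genes lie between -0.14 and 0.19, and the 4 called transcripts lie to the right.

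Transcripts spread more than genes. The 10 genes have 45 annotated transcripts in M21, of which 25 are protein-coding and 9 were listed at 0 in both libraries. Of the 27 whose counts summed to 20 or more, 4 were called, all higher in replicate 2, against 12.6% of the 50364 transcripts tested, 6.18% in that direction and 6.44% in the other. They were Vegfa-201, Vegfc-202, Nrp2-202 and Angpt1-202. For all 4 the deposited intervals of the libraries overlapped, and over all 6353 called transcripts the intervals were apart in 7.67%. The binomial test takes the assignment of reads to transcripts as known, which the deposited intervals do not.

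Vegfa-202, which carries exon 7 but not exon 6, was the leading Vegfa transcript on M21. It had 3.04 and 2.77 TPM, or 59.5% and 51.5% of the gene (55.5% ± 5.66, SD, n = 2). Vegfa-201, with neither variable exon and 146 codons, had 0.53 and 1.89 TPM, which is 10.4% and 35.1%. Its log2 ratio between the libraries was 1.78 with a 95% interval from 1.23 to 2.38 and an adjusted p of 8.31e-11 by the exact binomial test, on 34.65 and 112.37 counts. The deposited intervals were 0.0231 to 1.21 TPM and 1.10 to 2.86 TPM, and so overlapped slightly.

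Vegfa-211, which also lacks both variable exons, had 0.64 TPM (12.5% of the gene) in replicate 1, above Vegfa-201 there, and was listed at 0 in replicate 2. Vegfa-203, Vegfa-204, Vegfa-207, Vegfa-212 and Vegfa-213 were listed at 0 in both libraries. Those with both variable exons, the tightly matrix-bound forms, are Vegfa-204, Vegfa-207 and Vegfa-213. Retained-intron transcripts took 17.6% and 13.4% of Vegfa TPM, from different transcripts in each library. In replicate 1 they were Vegfa-205 (5.97 counts) and Vegfa-206 (7.89 counts, 11.5% of the gene), both at 0 in replicate 2. In replicate 2 they were Vegfa-209 (1.65 counts) and Vegfa-210 (8.71 counts), both at 0 in replicate 1.

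Grouped by the exons shown above, transcripts with exon 7 alone made up 72.2% and 59.4% of protein-coding Vegfa TPM, and those with neither exon 27.8% and 40.6%. This order depended on the annotation. On M4 the shares were 47.4% and 12.9% with exon 7 alone, and 51.9% and 87.1% with neither. The transcript named Vegfa-211 in M21 is 3324 bases long in M4, where it took 121 and 180 counts, against 13.8 and 0 in M21. In the posterior means on M21, exon 7 alone had 61.8% and 47.2%, neither exon 20.2% and 40.9%, and both exons 12.8% and 8.62%. The mean level of the gene as a whole was 5.245 TPM on M21 and 5.32 TPM on M4.

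Flt1 transcripts were divided among 3 main forms, with much the same shares on both annotations. The membrane receptor Flt1-202, with 30 exons and 3999 coding bases, had 7.76 and 8.76 TPM, or 35.6% and 37.0% of the gene (36.3% ± 0.987, SD, n = 2). The soluble form Flt1-203, with 688 codons, had 5.48 and 6.04 TPM, or 25.1% and 25.5%. Flt1-201, which ends in intron 11 and has no annotated coding sequence, had 7.90 and 7.65 TPM, or 36.3% and 32.3%. None of the 3 was called between the libraries. The membrane form was above the soluble form in both libraries, and the ranges did not overlap.

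Among these 3 Flt1 forms, those that end before the kinase exons made up 63.3% and 61.0% of TPM. On M4 the membrane form had 36.8% and 38.6% and the soluble form 26.0% and 26.7% of the gene. The soluble form rests on 838 and 835 counts, with a deposited posterior SD of 22.8 and 23.3 counts.

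**Figure D4:**
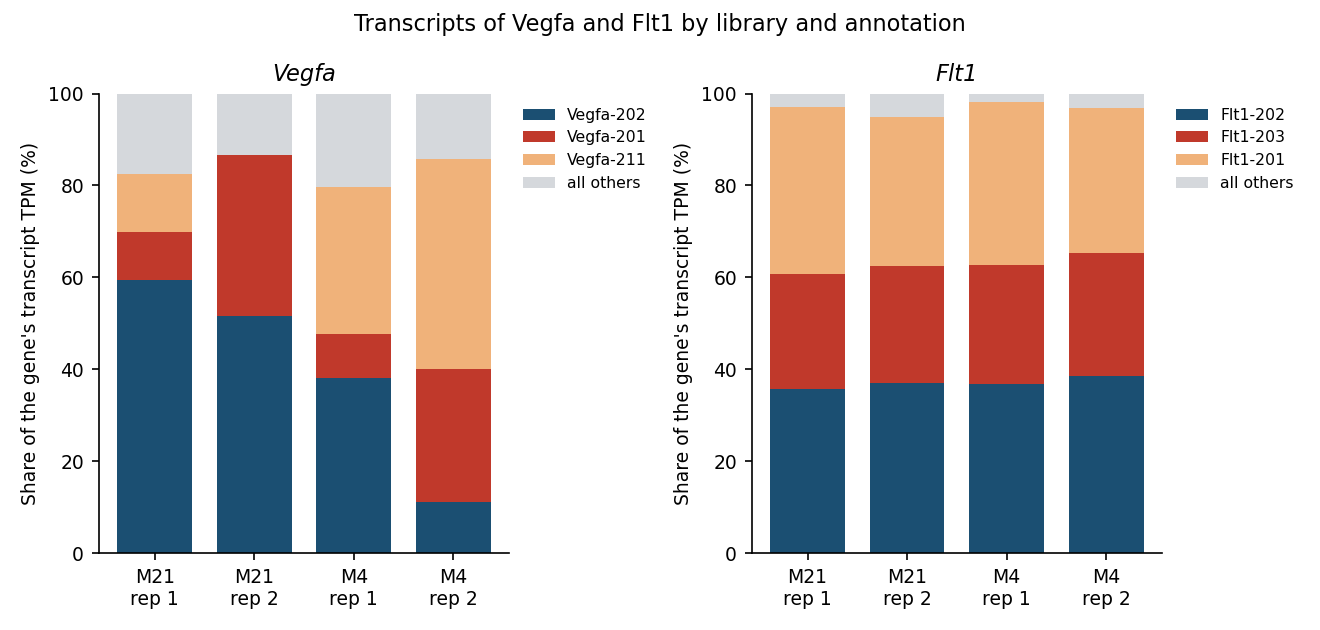
Share of the gene's transcript TPM in percent for Vegfa (left) and Flt1 (right), with bars for each library on M21 and on M4. The share of Vegfa-202 falls from 59.5% and 51.5% on M21 to 38.1% and 11.0% on M4, while the Flt1 bars are nearly alike.

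Both Vegfb forms were abundant. Vegfb-202, with the downstream acceptor and 188 codons, had 59.9 and 53.9 TPM, or 56.2% and 54.9% of the gene. Vegfb-201, with the extra 101 bases and 207 codons, had 43.8 and 42.4 TPM, or 41.1% and 43.2%. Neither was called between the libraries, and Vegfb-202 was above Vegfb-201 in both.

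Nrp2 transcripts are split by their last exon, which encodes the membrane-spanning and cytoplasmic end. Those with the distal last exon made up 57.8% and 59.9% of protein-coding Nrp2 TPM, and those with the proximal one 42.2% and 40.1%. Among the distal forms, Nrp2-202, with the 51-base exon shown above, had 0.43 and 1.13 TPM, and Nrp2-204, without it, had 2.15 and 1.45 TPM. The log2 ratio between libraries was 1.36 for Nrp2-202 (adjusted p of 3.24e-10, exact binomial test) and -0.60 for Nrp2-204 (adjusted p of 1.19e-05, exact binomial test, not called). The split between these forms depended on the estimator: the 2.15 TPM of Nrp2-204 lay above its deposited interval (0.152 to 2.10 TPM), and Nrp2-203, listed at 0, had posterior means of 115.3 and 60.1 counts. The distal sum was 2.58 TPM in each library, and 2.54 and 2.53 TPM in posterior means. Nrp2-201, the leading proximal form, had 1.59 and 1.55 TPM.

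The remaining genes were mostly of a single form. Kdr-201 held 97.7% and 98.3%, Flt4-201 99.4% and 99.7%, Angpt1-201 98.3% and 96.5%, and Angpt2-201 all of its gene's TPM in both libraries. Nrp1-201 held 79.5% and 77.3% of Nrp1, and the rest was retained-intron transcripts, chiefly Nrp1-203 with 15.2 and 16.7 TPM. Vegfc-201 held 82.1% and 72.9% of Vegfc, and the non-coding Vegfc-202 took 9.42% and 27.1%, on 14.35 and 43.74 counts. Vegfc counts gave a log2 ratio of 0.06 between the libraries, while its TPM was 15.4 and 18.04 and its mean transcript length 2105 and 1922 bases.

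**Figure D5:**
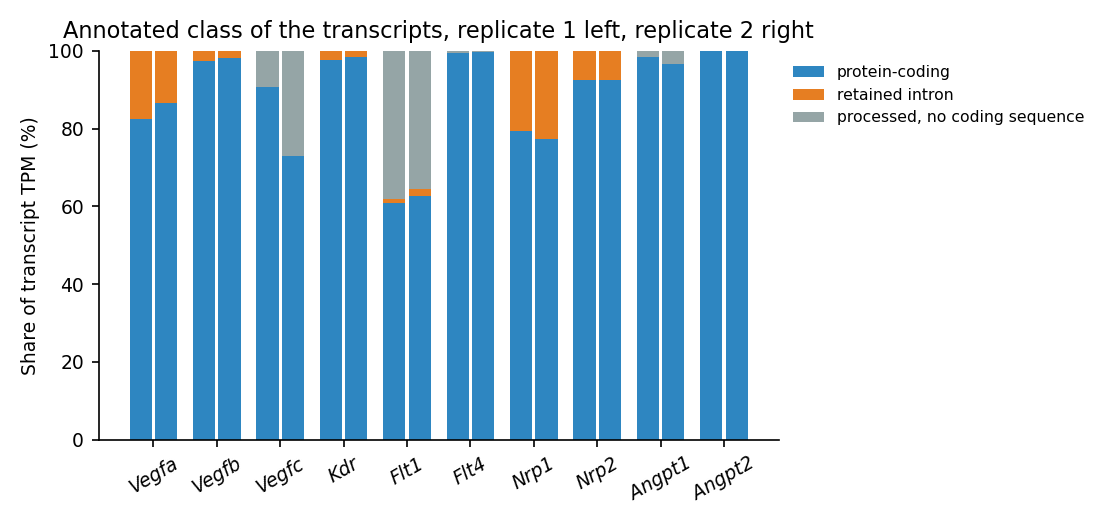
Share of each gene's transcript TPM by annotated class, replicate 1 left and replicate 2 right: protein-coding, retained intron, and processed without coding sequence. Flt1 has the largest non-coding share (38.0% and 35.5% processed transcripts), and retained introns are largest in Nrp1 (20.5% and 22.7%) and Vegfa (17.6% and 13.4%). The Vegfa share rests on few counts and on different transcripts in each library.

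Other genes of these pathways, in 5 lists with 79 members, were mostly present and close between the libraries. Of the 79, 72 were at 1 TPM or more in both libraries. Of the 77 tested by the exact binomial test, 0 were called higher and 0 lower in replicate 2, against 1.57% of all genes called in either direction. An unadjusted p under 0.05 was found for 24 of the 77, against 22.5% of all genes tested. Their median log2 ratio was 0.02, and that of all genes tested was -0.01. At any ratio, 7 had an adjusted p under 0.05 and were higher in replicate 2, and 3 were lower, together 10 of 77 against 10.0% of all genes tested.

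Among the ligands outside the 10, Pgf, a ligand of Flt1, had 6.52 and 6.43 TPM, and Vegfd, a ligand of Flt4, had 1.70 and 2.69 TPM. Angpt4, a further ligand of Tek, had 0.16 and 0.10 TPM. In plain TPM Pgf was thus above Vegfa in both libraries, and Angpt4 below Angpt2. The Pgf values lay inside the deposited intervals of Vegfa (5.06 to 7.19 TPM and 5.65 to 7.77 TPM). The posterior means of Vegfa were 6.10 and 6.66 TPM, so the order of Pgf and Vegfa is not settled.

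Of the 25 co-receptors and modulators 22 were detected, with the phosphatase Ptprb, which restrains Tek, at 8.72 and 11.4 TPM, and the semaphorin receptor Plxnd1 at 47.6 and 62.7 TPM. The counts of Plxnd1 gave a log2 ratio of only 0.08 between the libraries. All but Sh2d2a of the 24 signal transducers were detected, including the Kdr substrate Plcg1 at 37.1 and 36.9 TPM and the endothelial nitric oxide synthase Nos3 at 35.95 and 36.5 TPM. Of 12 reported target genes 10 were detected, among them Dll4, the Notch ligand of tip cells, at 5.09 and 5.33 TPM. All 13 regulators of Vegfa were detected, with the hypoxia-inducible subunits Hif1a at 172 and 183 TPM and Epas1 at 5.6 and 7.47 TPM.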

How the data were processed

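PolyA RNA-seq of mouse heart was deposited for 2 libraries of 1 group. Per the file headers, the authors deposited expected counts, TPM, FPKM, posterior means and interval bounds for genes and transcripts, once on GENCODE M21 and once on M4, both on mm10. The aligner, the counter and the strand setting were not given in the sources used here. Expected counts were rounded for testing. The genes, lists and tests were chosen with earlier results of these data known.

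Features whose counts summed to 20 or more were compared between libraries by a two-sided exact conditional binomial test (SciPy 1.17.1) with TMM sizes (edgeR 4.0.16, R 4.3.3). The p-values were adjusted by Benjamini-Hochberg over all features, and a ratio used a prior of 0.5 scaled counts. Rows with purely numeric names, 26248 in number, stayed out. In simulated data 188 of 200 genes changed 4-fold were recovered among 17978 tested, with 5 false calls. Among 50313 transcripts tested it was 167 of 200, with 3 false calls. The simulated counts held counting error alone, as the test assumes, with no other spread between libraries and no uncertainty in read assignment. The false calls therefore give no error rate for the real libraries. Alternatives included DESeq2 1.42.0 size factors, other filters, M4, posterior means and leaving out each library. All 10 genes were named, with each leading transcript, those of at least 10% of a gene and all protein-coding ones of Vegfa and Flt1. The p-values cover counting error between these 2 libraries and no spread between hearts or embryos.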

Additional observations from a re-analysis of the deposited data

How the results depend on the processing

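No paired analysis was possible because the 2 libraries form a single group. The number of the 10 genes called was 0 under all 8 alternatives. For their transcripts 6 alternatives were run, and 4 were called except for 8 of 36 with no filter beyond a summed count of 1 (11.7% of all transcripts tested), 2 of 19 with a summed count of at least 100 (5.82%) and 3 of 27 with edgeR's exact test (10.7%). The number of all genes called, 282, became 60 with a summed count of at least 100 and 114 with edgeR's exact test. With 2 libraries, leaving out either returns the value of the other, so the ranges without a library only restate the 2 library values. The log2 ratio of VEGF ligands to receptors (0.89) ranged from 0.83 to 0.95 when either library was left out and reversed to -1.22 in counts not divided by length. That of Angpt1 to Angpt2 (4.65) ranged from 4.61 to 4.69 without a library and became 4.37 in posterior means, 4.89 in counts and 3.90 with a pseudocount of 1 TPM. The Vegfa-202 share (55.5%) ranged from 51.5% to 59.5% without a library and became 39.9% in posterior means, 71.5% in counts, 65.8% of protein-coding transcripts and 24.5% on M4. The Flt1-202 share (36.3%) ranged from 35.6% to 37.0% and became 52.0% in counts, 58.9% of protein-coding transcripts and 37.7% on M4. Chosen after seeing the data, the share of protein-coding Vegfa TPM with exon 7 alone (65.8%) ranged from 59.4% to 72.2% and became 54.5% in posterior means and 30.1% on M4. Likewise, the Flt1 share that ends before the kinase exons (62.1%) ranged from 61.0% to 63.3% and became 47.6% in counts. Of the 10 gene levels, 5 moved by more than 1 SD on M4, 5 in posterior means and 10 after rescaling without spike-in, mitochondrial and globin genes. The rescaling multiplies all genes of a library by the same factor, so their order and ratios within a library cannot change. The cause of the other shifts was not tested. The lowest counts were 108 and 114 for Angpt2 and 314 and 330 for Vegfa, which sets the counting precision of both genes and of the Vegfa transcripts.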
